A study of Mus musculus with 12 samples.

Results

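Cell cycle genes were measured in cultured mouse cardiac fibroblasts treated with macrophage migration inhibitory factor (MIF), with soluble CD74 (sCD74), with both or with carrier. The genes were a list of 41 symbols: 5 G1 cyclins and kinases, 14 S-phase genes, 17 mitotic genes and 5 inhibitors of cyclin-dependent kinases. A gene was taken where a probe set of the arrays carried its symbol in the platform's annotation, with the probe set of highest mean standing for a gene with several. This gave 38 of the 41 genes among 19505 named genes: 4 G1, 13 S-phase and 16 mitotic genes and 5 inhibitors, each with 1 probe set. Ccnd1, Mcm7 and Ccnb1 were not analysed here.

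The cells came from hearts of wildtype C57BL/6J mice aged 1 to 7 days and were kept in culture for 10 to 14 days, over which, per the labels, they became myofibroblasts, the contractile matrix-producing form of the fibroblast. They received 40 nM sCD74 with 8 nM MIF, 8 nM MIF alone, 40 nM sCD74 alone or carrier for 8 h, and each of these 4 groups has 3 arrays. All groups share genotype, strain, age range and culture, and the labels do not say how many hearts were pooled. The replicate numbers 1, 2 and 3 each hold every treatment once, and the 4 arrays of a number carry a shared code in their titles. The labels do not say that the numbers are separate isolations, so p-values measure the spread between these arrays, which may be technical.

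MIF is a cytokine that signals through the surface receptor CD74, and sCD74 is a soluble form of the outer part of that receptor, which binds MIF. Cells enter the cycle when D-type cyclins with Cdk4 or Cdk6, and then E-type cyclins with Cdk2, phosphorylate the retinoblastoma protein and free E2F factors, which turn on genes of DNA replication. Later genes, for kinases, motors and kinetochore proteins of mitosis, are transcribed from G2 onwards, and Ink4 and Cip/Kip inhibitors hold the kinases back. Cardiac fibroblasts of newborn mice proliferate in culture, so such cultures hold cycling and resting cells side by side. In bulk RNA, fewer cycling cells and less of a transcript per cycling cell cannot be told apart.

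Values are the deposited log2 values of the arrays. They ran up to 18.39, with 231 to 251 probe sets per array above 16, so the size of a difference as a fold depends on the deposited scale, and differences are given on the log2 scale only. The level of the negative control probe sets served as background, with medians of 7.37 to 7.90 per array. Of the 38 genes, 35 lay above that median on all 12 arrays. Cdkn2a lay below it on all 12 arrays, E2f1 lay above it on 7 and Cdkn2b on 10. A stricter bound, chosen after values were seen, is the 95th percentile of the negative controls (10.79 to 11.29 per array): 17 genes lay above it on all 12 arrays and 10 on 0 arrays. The 10 were E2f1, Mcm3, Mcm5, Cdk1, Aurka, Birc5, Cdc20, Cdkn2a, Cdkn2b and Cdkn2c.

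The 9 measured fibroblast markers all had means above background, between 10.41 for Thy1 and 17.61 for Dcn. So did 15 of 16 macrophage markers (Lyz2 mean 17.22), 11 of 12 endothelial markers and 6 of 10 cardiomyocyte markers, so markers of other cell types were measured in the arrays labelled cardiac fibroblasts. By replicate number, the macrophage list's log2 summed level was 18.23 to 18.63 on arrays numbered 1, 18.67 to 19.06 on number 3 and 19.09 to 19.29 on number 2. The cardiomyocyte list's was 14.19 to 14.61 on number 1, 13.08 to 13.29 on number 3 and 14.86 to 15.08 on number 2. The endothelial list's was 15.97 to 16.09 on number 1, 15.18 to 15.38 on number 3 and 14.96 to 15.05 on number 2. The fibroblast list's was 19.42 to 19.54, 19.39 to 19.56 and 19.30 to 19.41 in that order of numbers. By treatment the same lists overlapped: the macrophage list ran over 18.44 to 19.29 with sCD74 and MIF, 18.39 to 19.09 with MIF, 18.23 to 19.26 with sCD74 and 18.63 to 19.25 with carrier. The part of these cells in any result below was not tested.

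**Figure D1:**
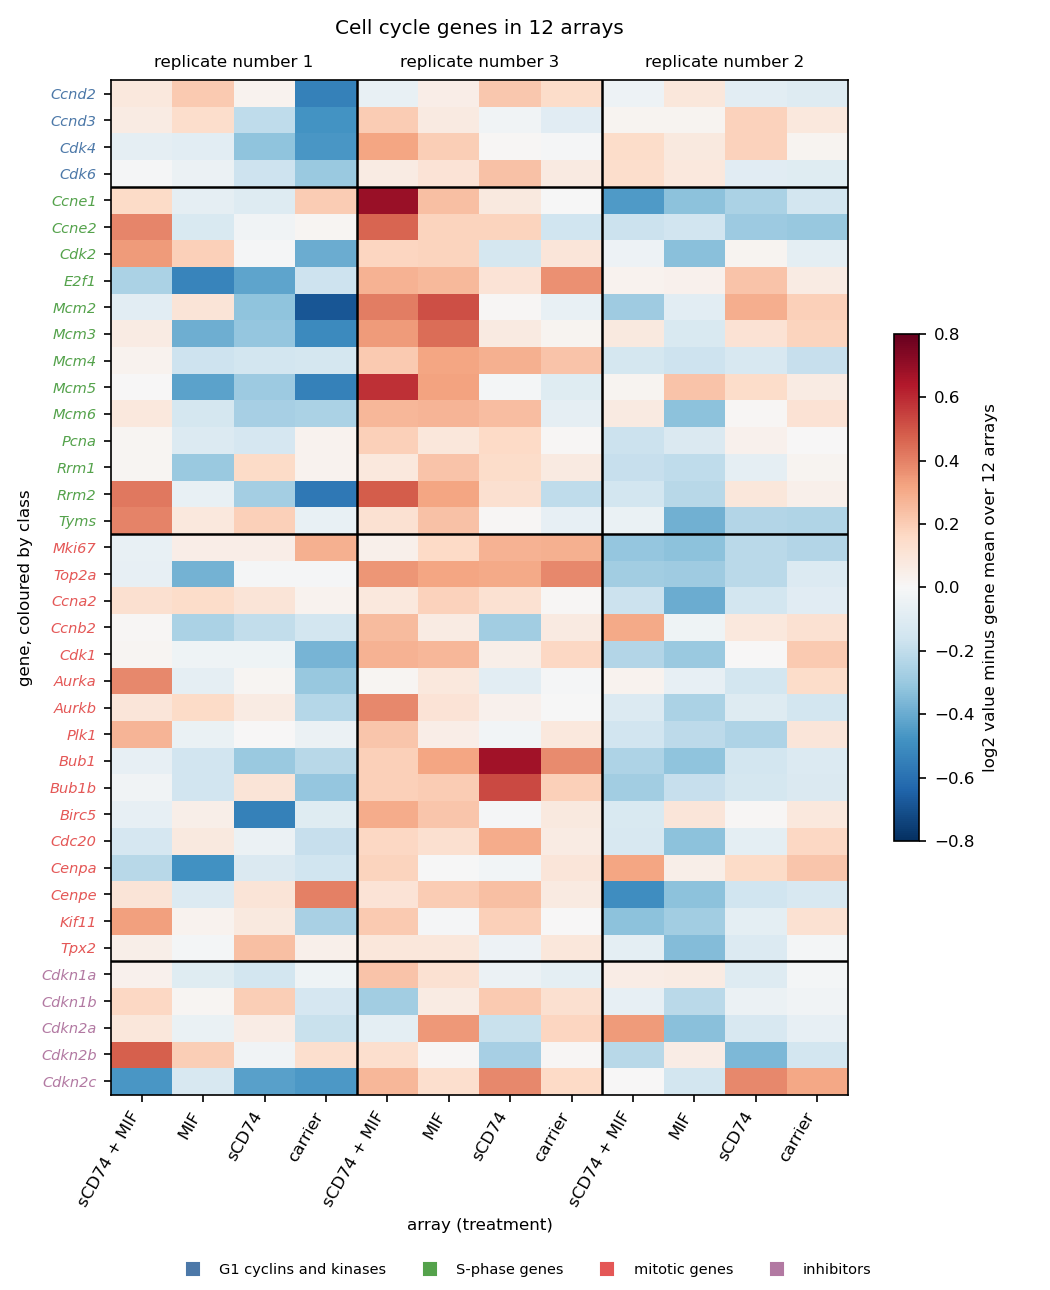
Heat map of the 38 genes (rows, coloured by class) in the 12 arrays (columns, grouped by replicate number), as the log2 value minus the gene's mean over the 12 arrays. With both agents and with MIF, the columns numbered 3 are mostly red in the S-phase and mitotic rows and those numbered 2 mostly blue. With sCD74 the same holds in the mitotic rows, while the S-phase rows are mostly red in number 3 and mixed in number 2. With carrier the S-phase rows are mixed in both numbers, and the mitotic rows are mixed in number 2 and mostly red in number 3. The carrier column of number 1 is the bluest in the G1 rows.

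Promoters are shown for 6 of the 10 members called between replicate numbers, chosen after the matches were seen because they hold motifs known for their classes. The search used 3 motifs on both strands: CCAAT (bound by NF-Y), TTTGAA (the core of the element bound by the MuvB complex in mitotic genes) and TTTNNCGC (an E2F site), in windows of 250 bases before to 50 after the start. Sequences and starts are RefSeq's on GRCm38.p6, and 34 of the 41 genes had 39 promoters in that table. CCAAT was present in 13 of 14 mitotic promoters, 10 of 13 S-phase promoters, 3 of 8 inhibitor promoters and 1 of 4 G1 promoters, and in 37.4% of all 32851 promoters. TTTGAA was present in 10 of 14 mitotic promoters (71.4%), 1 of 13 S-phase, 1 of 8 inhibitor and 0 of 4 G1 promoters, and in 17.9% of all promoters. TTTNNCGC was present in 1 of 14 mitotic promoters, 6 of 13 S-phase promoters (46.2%), 2 of 8 inhibitor and 1 of 4 G1 promoters, and in 5.17% of all. These are matches of letters and not sites. The 200 bases before each start are printed 5′ to 3′ in the direction of the gene, with matches of the 3 motifs on either strand in capitals. Mki67 lies at chr7:135716380-135716579 (minus strand), Top2a at chr11:99024190-99024389 (minus strand), Bub1 at chr2:127831860-127832059 (minus strand), Cenpa at chr5:30666686-30666885 (plus strand), Mcm5 at chr8:75109309-75109508 (plus strand) and Mcm3 at chr1:20820313-20820512 (minus strand).
Mki67: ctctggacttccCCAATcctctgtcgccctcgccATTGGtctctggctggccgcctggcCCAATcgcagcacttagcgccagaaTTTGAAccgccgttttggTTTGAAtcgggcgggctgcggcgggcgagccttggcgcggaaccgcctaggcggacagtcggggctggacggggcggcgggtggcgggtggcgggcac
Top2a: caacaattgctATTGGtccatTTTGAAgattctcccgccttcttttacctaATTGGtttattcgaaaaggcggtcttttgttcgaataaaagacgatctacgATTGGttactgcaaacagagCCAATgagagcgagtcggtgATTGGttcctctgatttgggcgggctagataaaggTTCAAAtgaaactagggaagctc
Bub1: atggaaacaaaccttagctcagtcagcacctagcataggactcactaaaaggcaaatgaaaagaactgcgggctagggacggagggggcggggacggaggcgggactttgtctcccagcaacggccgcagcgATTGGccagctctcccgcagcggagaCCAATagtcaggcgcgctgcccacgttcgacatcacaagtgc
Cenpa: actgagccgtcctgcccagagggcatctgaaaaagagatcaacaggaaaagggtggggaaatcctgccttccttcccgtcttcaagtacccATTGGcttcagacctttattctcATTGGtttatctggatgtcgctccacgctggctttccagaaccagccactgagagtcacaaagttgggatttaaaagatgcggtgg
Mcm5: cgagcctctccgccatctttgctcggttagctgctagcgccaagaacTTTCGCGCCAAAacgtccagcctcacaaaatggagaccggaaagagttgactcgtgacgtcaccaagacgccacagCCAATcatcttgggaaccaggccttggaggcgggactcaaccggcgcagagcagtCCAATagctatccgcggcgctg
Mcm3: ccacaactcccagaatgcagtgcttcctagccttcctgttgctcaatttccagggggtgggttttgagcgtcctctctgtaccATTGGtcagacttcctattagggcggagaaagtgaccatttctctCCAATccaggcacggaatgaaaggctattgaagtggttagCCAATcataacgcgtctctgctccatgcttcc
Mki67 and Top2a each show 2 TTTGAA matches and 3 and 5 CCAAT matches. Bub1 and Cenpa show 2 CCAAT matches each and no TTTGAA in these 200 bases, and Cenpa has 1 TTTGAA after its start. Mcm5 shows 2 overlapping TTTNNCGC matches on opposite strands and 2 CCAAT matches. Mcm3 shows 3 CCAAT matches in these bases, and its 2 TTTNNCGC matches lie after the start. Of the 4 called members not printed, E2f1, Cdk4 and Cdkn2c hold 0 matches of the 3 motifs in the 200 bases before their starts, and Cdkn2b holds 1 TTTGAA.

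The treatments were compared first, and no cell cycle gene was called in any of the 8 contrasts. Of 19505 genes, 0 passed an adjusted p of 0.05 (limma, Benjamini-Hochberg over all genes) with sCD74 and MIF, with MIF or with sCD74 against carrier, and 0% is therefore the share called in each. The same 0% held for both agents against MIF, both against sCD74, the departure from additivity, all arrays with MIF against those without, and all with sCD74 against those without. Unadjusted p-values under 0.05 were held by 780, 653 and 350 genes in the 3 contrasts against carrier, of which 1, 0 and 0 were cell cycle genes. The median standard error of the genes' differences was 0.18, and their 95% intervals ran from -0.65 to 0.96 with both agents, -0.69 to 0.92 with MIF and -0.64 to 0.73 with sCD74. This fit has no term for replicate number, and differences inside those intervals were not resolved by it. Deviations from group means had a median correlation of 0.43 between same-numbered arrays and -0.21 between differently numbered ones. The standard errors of the treatment differences therefore also hold the spread between numbers. With number as a block, given in the last section, no cell cycle gene was called either.

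Among the G1 genes, Ccnd2 and Ccnd3 (D-type cyclins), Cdk4 and Cdk6 (their kinases) all had positive differences in each of the 3 contrasts against carrier. Their median was +0.22 with both agents, +0.23 with MIF and +0.13 with sCD74, against 0.00, 0.01 and 0.00 over all genes. Ccnd2 read 13.95, 13.83 and 13.81 with both agents, 14.08, 13.96 and 13.92 with MIF, 13.90, 13.79 and 14.09 with sCD74, and 13.33, 13.77 and 14.02 with carrier (numbers 1, 2 and 3). The carrier array of number 1 was the lowest of the 12, and the 4 groups otherwise overlapped. The difference of MIF from carrier was 0.28 ± 0.16 (SE, n = 3 each, limma adjusted p = 1.0) and that of sCD74 was 0.22 ± 0.16 (adjusted p = 1.0). Without the carrier array of number 1 the G1 median was 0.09 with both agents and 0.07 with MIF, and was -0.00 with sCD74 with 2 of 4 genes higher. That fit has no term for number, and set treated arrays of all 3 numbers against carrier arrays of numbers 2 and 3. Number 1 was lower for these genes (median -0.19 against numbers 2 and 3). Treatment leave-outs of 1 array, here and below, therefore also hold differences between numbers. Within all 3 numbers, 4 of 4 genes were higher than carrier with sCD74, 1 with both agents and 2 with MIF, not counted over all genes. Within number 1 the G1 median difference was 0.47 with both agents, 0.50 with MIF and 0.21 with sCD74, and within number 2 it was 0.09, 0.12 and 0.06. Within number 3 it was 0.14, 0.10 and 0.07. That carrier array had a gap between positive and negative control medians of 3.77, in a range over all arrays of 3.67 to 4.25.

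Of the 13 S-phase genes, 10 had positive differences with both agents (median +0.21), 9 with MIF (+0.08) and 11 with sCD74 (+0.06). Rrm2, the small subunit of ribonucleotide reductase that makes deoxynucleotides, had the smallest p of the genes. It read 11.70, 11.13 and 11.76 with both agents, 11.22, 11.05 and 11.59 with MIF, 11.00, 11.37 and 11.41 with sCD74, and 10.71, 11.32 and 11.07 with carrier. Both of the higher co-treated arrays lay above all 3 carrier arrays, and the co-treated array of number 2 lay below the highest carrier array. The difference of both agents from carrier was 0.50 ± 0.21 (SE, n = 3 each, limma adjusted p = 0.999). Rrm2 was the 1 cell cycle gene with an unadjusted p under 0.05 there. It also had the smallest p of those higher in all arrays with sCD74 against all without (0.23 ± 0.15, adjusted p = 1.0). Without the carrier array of number 1 its difference was 0.33. Ccne2, an E-type cyclin, differed by 0.38 ± 0.19, and Mcm5, a subunit of the replicative helicase, by 0.40 ± 0.23 with both agents, both with an adjusted p of 0.999. Pcna, the sliding clamp of DNA polymerase, stood at 15.65 ± 0.18 with both agents, 15.60 ± 0.12 with MIF, 15.66 ± 0.15 with sCD74 and 15.66 ± 0.01 with carrier (SD, n = 3 each). Within numbers 1, 2 and 3 the S-phase median was 0.37, -0.05 and 0.31 with both agents, 0.11, -0.18 and 0.30 with MIF, and 0.13, 0.03 and 0.08 with sCD74, so number 2 had the opposite sign with both agents and with MIF. Without the carrier array of number 1 the S-phase medians were 0.12 with both agents, 0.00 with MIF and -0.02 with sCD74. Without the MIF array of number 3 the median with MIF was -0.13. Both leave-outs made the groups unequal in replicate numbers, for which the fit has no term.

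Mitotic genes had differences on either side of zero: 10 of 16 were positive with both agents (median +0.02), 4 with MIF (-0.06) and 7 with sCD74 (-0.01). Mki67, which encodes the proliferation antigen Ki-67 that coats mitotic chromosomes, read 14.45, 14.20 and 14.55 with both agents, 14.56, 14.18 and 14.67 with MIF, 14.56, 14.29 and 14.78 with sCD74, and 14.79, 14.28 and 14.79 with carrier. In all 4 groups the lowest array was that of number 2. Its difference with both agents was -0.22 ± 0.19 (95% interval -0.63 to 0.19, limma adjusted p = 0.999), and it had the smallest p of the genes lower there. Within a number, Mki67 was below its carrier array in 3 of 3 numbers with both agents and with MIF and in 2 of 3 with sCD74. Top2a, the topoisomerase that untangles chromosomes before they separate, was below its carrier array in 3 of 3 numbers under each treatment, with mean differences of -0.08 ± 0.22 with both agents, -0.20 ± 0.22 with MIF and -0.06 ± 0.22 with sCD74. These treatments share the carrier arrays, and neither gene was called. Of the 16 mitotic genes, 2 were below and 2 above their carrier array in 3 of 3 numbers with both agents. The counts were 5 and 1 with MIF and 3 and 1 with sCD74. Of the 13 S-phase genes, 1 was below and 3 above with both agents, 1 and 1 with MIF, and 0 and 4 with sCD74. These counts were not taken over all genes, so no result is read from them. Cenpa, the histone H3 variant of centromeres, had the smallest p of those lower with MIF: 11.06, 11.58 and 11.54 with MIF, against 11.38, 11.76 and 11.63 with carrier, a difference of -0.20 ± 0.18 (adjusted p = 1.0). Without the MIF array of number 1 that difference was -0.03. Cenpe, a kinetochore motor, was the lower member with the smallest p in all arrays with MIF against all without (-0.17 ± 0.15, adjusted p = 1.0). Birc5, the survivin subunit of the chromosomal passenger complex, was the lower member with the smallest p in all arrays with sCD74 against all without (-0.14 ± 0.12, adjusted p = 1.0).

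Ccnb2, a mitotic cyclin that activates Cdk1, had the smallest p in the contrasts between agents. It read 12.49, 12.79 and 12.74 with both agents, 12.24, 12.45 and 12.56 with MIF, 12.29, 12.57 and 12.21 with sCD74, and 12.34, 12.61 and 12.56 with carrier. The co-treated array was the highest in each replicate number. Ccnb2 was picked for its small p in these contrasts, and the share of all genes with this order was not taken. Both agents exceeded MIF by 0.26 ± 0.15 (adjusted p = 1.0) and sCD74 by 0.32 ± 0.15 (limma adjusted p = 1.0), a 95% interval starting at 0.00. Ccnd2 had the smallest p of the genes lower with both agents than with MIF (-0.12 ± 0.16, adjusted p = 1.0). The departure from additivity was 0.41 ± 0.21 for Ccnb2 and -0.34 ± 0.23 for Ccnd2, both with an adjusted p of 1.0, so no interaction of the agents was called for these genes. The S-phase genes were higher with both agents than with MIF in 12 of 13 and than with sCD74 in 11 of 13, with medians of 0.16 in both contrasts, and 0 were called. Without the co-treated array of number 3 the S-phase median against MIF was 0.0088, and without the sCD74 array of number 1 that against sCD74 was 0.065. The mitotic genes were higher with both agents than with MIF in 13 of 16 (median 0.077), and than with sCD74 in 8 of 16 (-0.0023).

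None of the 5 inhibitors was called for treatment. Cdkn1a, the p53-induced inhibitor p21, read 15.53, 15.56 and 15.73 with both agents, 15.40, 15.57 and 15.62 with MIF, 15.35, 15.39 and 15.45 with sCD74, and 15.46, 15.48 and 15.42 with carrier. The co-treated arrays were all above the carrier and the sCD74 arrays, and exceeded carrier by a mean of 0.15 ± 0.11 (95% interval -0.09 to 0.40, limma adjusted p = 0.999). The share of all genes with such a separation was not taken, so no result is read from it. Cdkn1b, the inhibitor p27, read 12.16, 11.92 and 11.71 with both agents, 12.01, 11.77 and 12.06 with MIF, 12.19, 11.94 and 12.20 with sCD74, and 11.86, 11.96 and 12.12 with carrier, and the 4 groups overlapped. Both agents minus sCD74 gave -0.18 ± 0.15 for Cdkn1b (adjusted p = 1.0). Cdkn2b, an Ink4 inhibitor of Cdk4 and Cdk6, read 8.22, 7.53 and 7.88 with both agents, 7.94, 7.81 and 7.75 with MIF, 7.72, 7.39 and 7.48 with sCD74, and 7.88, 7.60 and 7.76 with carrier. The sCD74 arrays of numbers 2 and 3 lay under their negative control medians, so no size is read for Cdkn2b in contrasts that hold them. It had the smallest p of the genes lower with sCD74 than with carrier and of those higher in all arrays with MIF than in all without (limma adjusted p = 1.0 in both). Cdkn2c, the Ink4 inhibitor p18, had differences of -0.07 ± 0.26, -0.05 ± 0.26 and 0.11 ± 0.26 with both agents, MIF and sCD74. Cdkn2a, the locus of p16 and Arf, stayed below background on all arrays, at 6.13 to 6.81, and no size is read from it.

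Of the pathway lists, other replication genes were higher with both agents in 28 of 31 (median +0.18) and other mitotic genes in 33 of 49 (+0.04), with 0 called in either. With MIF the counts were 23 of 31 (+0.08) and 21 of 49 (-0.04), and with sCD74 19 of 31 (+0.06) and 37 of 49 (+0.05). The mean deviation of the other replication genes in number 2 was 0.00022 with both agents, against 0.031 with carrier, and the carrier array of number 1 was the lowest of the 12 at -0.22. Without that carrier array their median was 0.11 with both agents (25 of 31 higher), 0.025 with MIF (17) and 0.00075 with sCD74 (16). Without it the median of the other mitotic genes was 0.011 with both agents, -0.054 with MIF and 0.045 with sCD74. As above, this left number 1 among the treated arrays only. Cell cycle transcription factors and checkpoint genes were higher with both agents in 20 of 24 (+0.06) and p53 targets and other arrest genes in 11 of 16 (+0.08), against 50.3% of all genes. Without the co-treated array of number 3 these medians were -0.013 and -0.0029. These comparisons share the carrier arrays with one another.

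**Figure D2:**
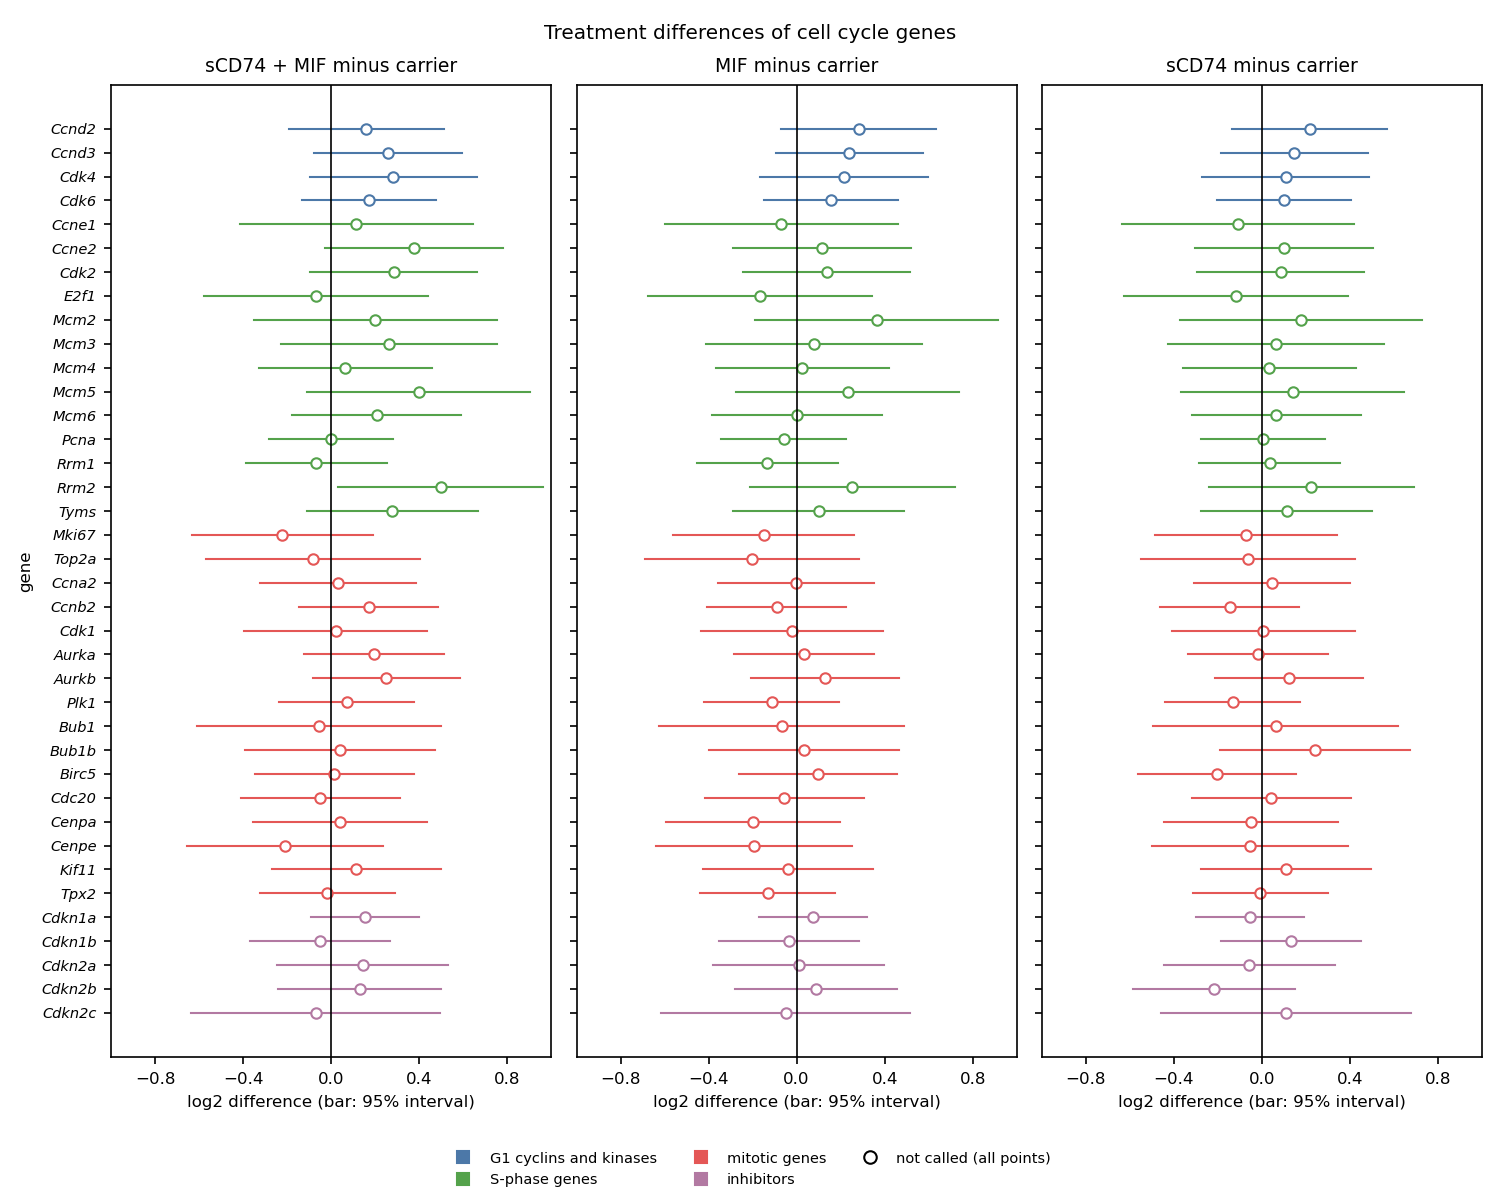
Log2 difference of each gene from carrier with sCD74 and MIF (left), MIF (middle) and sCD74 (right), with its 95% interval from limma, n = 3 arrays a group. All points are open because none passed the adjusted p of 0.05, and every interval spans zero except that of Rrm2 with both agents, whose lower end is 0.03.

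Cell cycle genes were called between replicate numbers. Between number 3 and number 2, 35 of 38 genes were higher, with medians of +0.21 for the S-phase genes (13 of 13 higher), +0.26 for the mitotic genes (14 of 16), +0.11 for the 4 inhibitors above background (4 of 4) and +0.07 for the G1 genes (3 of 4). Over all genes 48.4% were higher, with a median of -0.01. The shift was uneven over the treatments, with 1 array each. The S-phase mean deviation from the genes' 12-array means was -0.11 on number 2 and 0.33 on number 3 with both agents. It was -0.17 and 0.28 with MIF, -0.0033 and 0.097 with sCD74, and -0.021 and 0.011 with carrier. For the mitotic genes it was -0.14 and 0.19, -0.22 and 0.15, -0.096 and 0.14, and 0.014 and 0.12 in that order of treatments. The test called 3 of the 38 genes higher and 0 lower, all 3 mitotic, where 0.441% of all genes were called higher and 0.708% lower. On 10 of 38 genes the 4 arrays of number 3 all lay above the 4 of number 2, against 5.5% of all genes, and on 0 they lay below, against 4.94%.

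Mki67 read 14.55, 14.67, 14.78 and 14.79 on the number 3 arrays (both agents, MIF, sCD74, carrier), against 14.20, 14.18, 14.29 and 14.28 on the number 2 arrays. The sets did not overlap, and the difference was 0.46 ± 0.09 (SE, n = 4 each, limma adjusted p = 0.0352). Top2a read 11.22, 11.18, 11.17 and 11.25 on number 3, against 10.59, 10.58, 10.65 and 10.75 on number 2. Its difference was 0.56 ± 0.10 (adjusted p = 0.0188), again with no overlap. Bub1, a kinase of the spindle assembly checkpoint, read 11.34, 11.47, 11.83 and 11.53 on number 3, against 10.91, 10.84, 11.01 and 11.04 on number 2, a difference of 0.59 ± 0.12 (adjusted p = 0.0330). The highest Bub1 value was the sCD74 array of number 3. Mcm4, another helicase subunit, missed the threshold at 0.41 ± 0.09 (adjusted p = 0.0560), and so did Bub1b, the checkpoint kinase BubR1, at 0.46 ± 0.10 (adjusted p = 0.0579). Both had all 4 number 3 arrays above the number 2 arrays, as had Ccne1, Rrm1, Ccna2, Aurkb and Cenpe. Mki67, Rrm1, Ccna2, Aurkb and Cenpe lay above the 95th percentile of the negative controls on all 12 arrays. Bub1 did so on 9, Mcm4 on 8, Top2a on 4, Ccne1 on 3 and Bub1b on 1. All number 2 arrays of Top2a lay below that bound. In 6 of 13 S-phase genes and 8 of 16 mitotic genes the number 3 array was higher in each of the 4 treatment groups, against 11.5% of all genes, and in 0 and 1 it was lower in each, against 10.9%. In the other 7 S-phase and 7 mitotic genes the direction differed between treatments. Mcm2, Mcm3 and Mcm5, subunits of the replicative helicase, were higher in number 3 with both agents and with MIF but lower with sCD74 and with carrier (Mcm2 0.69, 0.60, -0.28 and -0.25).

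The 3 calls were not stable when arrays were left out, and the cause was not tested. Mki67 was kept in 7 of 22 alternatives, Top2a in 11 and Bub1 in 11, with the same direction in every one of them. Leaving out any 1 of the 4 treatment groups left 0 members called. Leaving out any single array numbered 2 or 3 left 1 member called without the co-treated array of number 3 or the MIF array of number 2, and 0 without any of the other 6. The differences without 1 array were 0.43 to 0.50 for Mki67, 0.52 to 0.59 for Top2a and 0.49 to 0.67 for Bub1. With an intensity trend and robust variance, or with genes below background left out, 7 members were called higher, the 3 named with Bub1b, Ccne1, Cenpe and Mcm4. Among other cell cycle lists, the other mitotic genes were higher in 44 of 49 (median +0.26) with 2 called, Cenpf at 0.51 ± 0.09 (adjusted p = 0.0231) and Aspm at 0.57 ± 0.12 (adjusted p = 0.0462), both proteins of the mitotic spindle or kinetochore. Other replication genes were higher in 23 of 31 (+0.13) with 0 called. Of the p53 targets and arrest genes 1 was called, Eda2r at 0.59 ± 0.12 (adjusted p = 0.0343). Beside these, 6 of 10 cardiomyocyte markers were called lower in number 3 (median -1.21, with Myh6 at -2.97 and Myl2 at -3.08), 5 of 12 endothelial markers higher (+0.41), 1 of 16 macrophage markers lower (-0.41, with Csf1r at -0.80) and 0 of 9 fibroblast markers (+0.04). The part of these cell types in the shift was not tested.

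**Figure D3:**
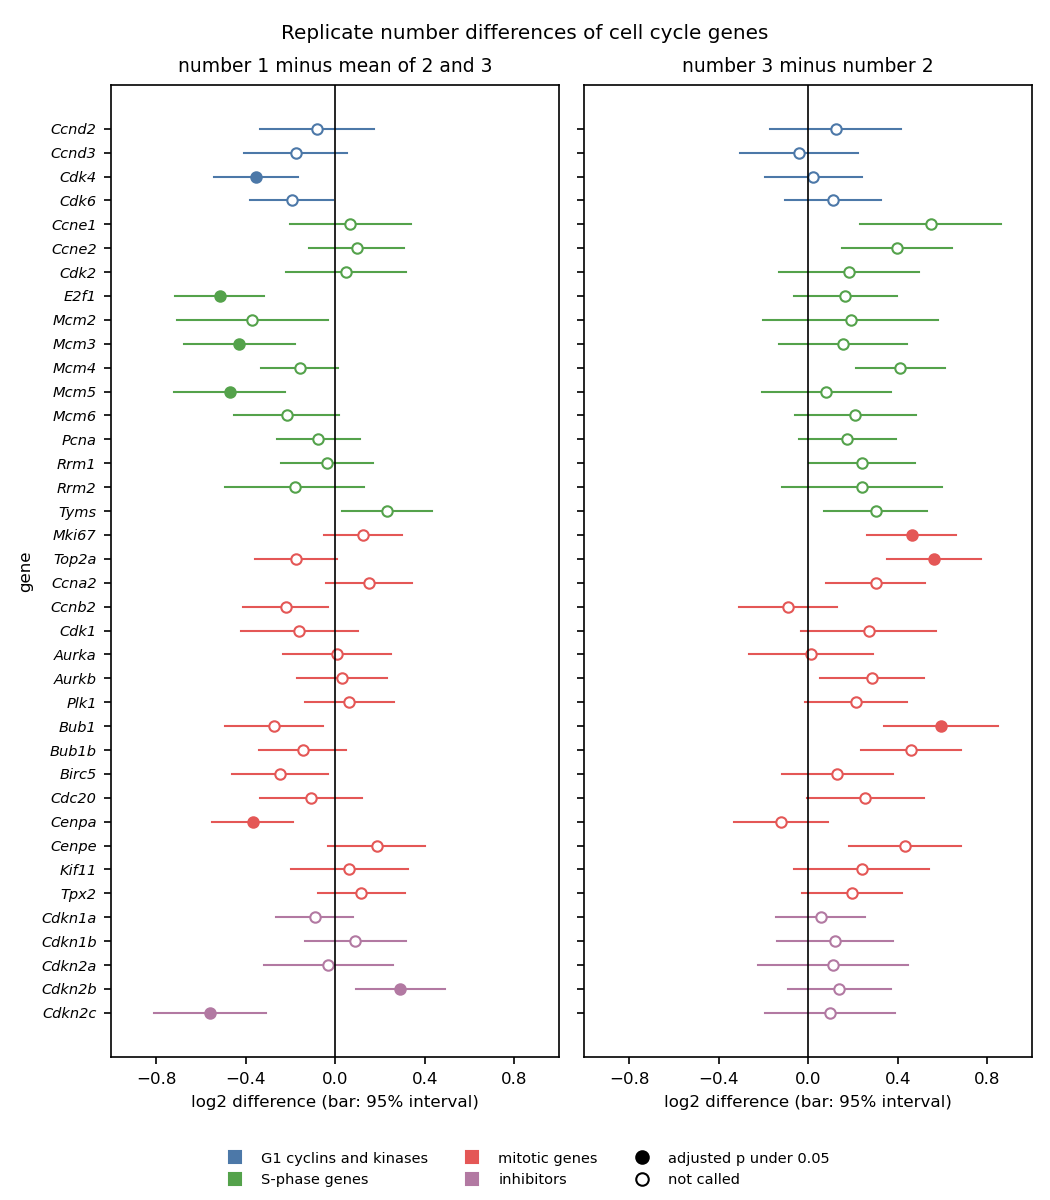
Log2 difference of each gene between replicate numbers with its 95% interval (left: number 1 minus the mean of numbers 2 and 3; right: number 3 minus number 2; limma with treatment as a term). Filled points passed an adjusted p of 0.05: 7 on the left, of which only Cdkn2b is to the right of zero, and 3 on the right, all mitotic.

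Arrays numbered 1 differed from those numbered 2 and 3 in other genes. The test called 6 of the 38 genes lower and 1 higher, where 9.39% and 7.03% of all genes were called lower and higher. The counts of members are small, and no difference from these shares is read. The class medians were -0.19 for the G1 genes (0 of 4 higher), -0.16 for S-phase (4 of 13), -0.05 for mitotic (8 of 16) and -0.00 for the 4 inhibitors above background (2 of 4), against +0.02 over all genes. The 4 arrays of number 1 lay below all 8 of numbers 2 and 3 for 3 of 38 genes (Cdk4, E2f1 and Cenpa), against 5.71% of all genes, and above them for 0, against 4.1%.

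Cdk4 read 14.23, 14.22, 13.98 and 13.84 on number 1 (both agents, MIF, sCD74, carrier), against a lowest of 14.30, a median of 14.41 and a highest of 14.62 over the 8 arrays of numbers 2 and 3. The difference was -0.35 ± 0.09 (SE, n = 4 and 8, limma adjusted p = 0.0147). Mcm5 read 9.20, 8.77, 8.91 and 8.66 on number 1, against 9.10 to 9.79 with a median of 9.30 on the others, a difference of -0.47 ± 0.11 (adjusted p = 0.0139) with 1 number 1 array inside the range. Mcm3, another helicase subunit, read 9.59, 9.14, 9.22 and 9.02, against 9.41 to 9.97 with a median of 9.63, a difference of -0.43 ± 0.11 (adjusted p = 0.0233). Cenpa read 11.32, 11.06, 11.42 and 11.38, against 11.52 to 11.86 with a median of 11.66, a difference of -0.37 ± 0.08 (adjusted p = 0.00969). E2f1 read 7.30, 7.02, 7.12 and 7.38, against 7.57 to 7.91 with a median of 7.72 (adjusted p = 0.00212), but the number 1 arrays all lie under their negative control median, so the size is not read. Mcm3, Mcm5 and E2f1 lie within the range of the negative controls, below their 95th percentile on all 12 arrays, while Cdk4 and Cenpa lie above it on all 12.

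Among the inhibitors, Cdkn2c read 9.65, 9.99, 9.68 and 9.66 on number 1, against 9.97 to 10.50 with a median of 10.33 on numbers 2 and 3. The difference was -0.56 ± 0.12 (adjusted p = 0.00566), and the MIF array of number 1 alone reached into that range. Cdkn2c lies below the 95th percentile of the negative controls on all 12 arrays. Cdkn2b read 8.22, 7.94, 7.72 and 7.88, against 7.39 to 7.88 with a median of 7.68, and was called higher (adjusted p = 0.0473), with no size read. Cdkn2b kept its call in 4 of 22 alternatives, lies near the negative control median, and is under it on 2 of the 8 arrays. Cdkn1a and Cdkn1b differed by -0.09 ± 0.08 (adjusted p = 0.494) and 0.09 ± 0.10 (adjusted p = 0.612) and were not called. E2f1 kept its call in 22 of 22 alternatives, Cdkn2c in 21, Cenpa in 19, Cdk4 and Mcm5 in 18 and Mcm3 in 15. Leaving out the MIF, the sCD74 or the carrier arrays, or the carrier array of number 1, left 3 members called, and 4 were called without the MIF or the sCD74 array of number 1.

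**Figure D4:**
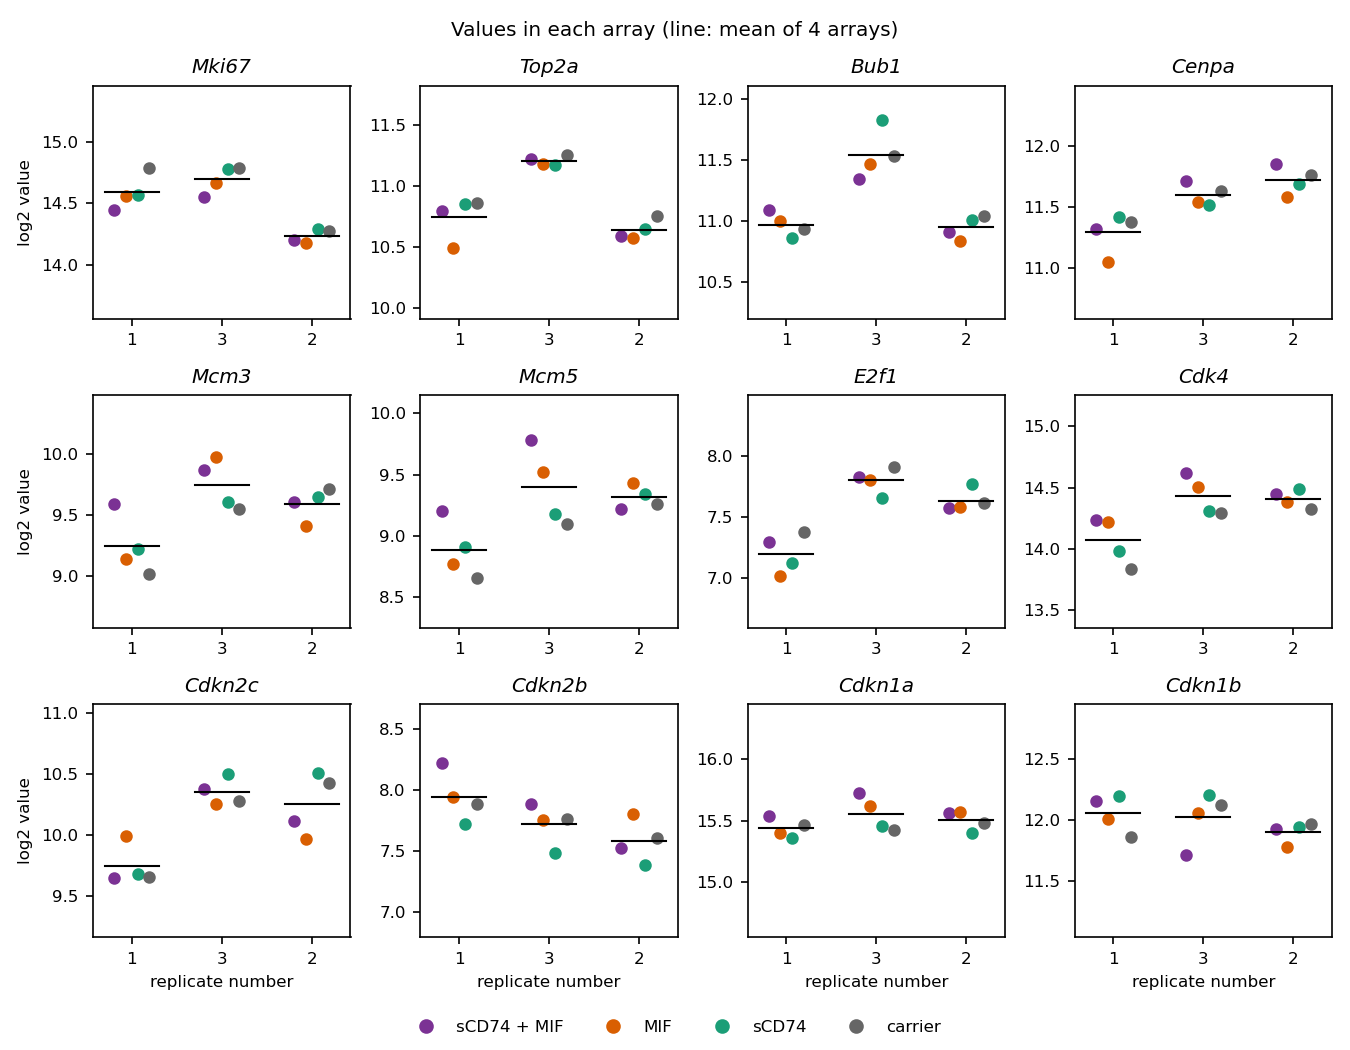
Log2 value of 12 genes in each array by replicate number (points coloured by treatment, line at the mean of the 4 arrays of a number). The panels have different axis positions but the same span, so heights compare differences and not levels; Mki67, Top2a and Bub1 stand higher in number 3 than in number 2, and Cdk4, Cenpa, Mcm3, Mcm5, E2f1 and Cdkn2c stand lower in number 1.

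Other cell cycle lists are set against the 9.39% of all genes called lower and 7.03% called higher on number 1. Of 31 other replication genes 5 were lower (16.1%) and 0 higher, led by Fen1, the flap endonuclease, at -0.59 ± 0.11, Cdt1, a licensing factor, at -0.51 ± 0.12 and Chaf1b, a subunit of a chromatin assembly factor, at -0.43 ± 0.13 (limma adjusted p = 0.0037, 0.0116 and 0.0449). Of 49 other mitotic genes 3 were higher (Cenpf 0.45, Ckap2l 0.40, Kif20b 0.30) and 3 lower (Iqgap3 -0.54, Racgap1 -0.43, Cdca3 -0.39), 6.12% each way and below both shares of all genes. Of 24 transcription factors and checkpoint genes 2 were higher, Myc at 0.60 and Cks2 at 0.42, and 2 lower, Fzr1 at -0.41 and Wee1 at -0.39, 8.33% each way and near the shares of all genes. Of 16 p53 targets and arrest genes 4 were lower (25.0%), led by Sesn1 at -0.78, Trp53inp1 at -0.53 and Gadd45b at -0.38. Beside these, 15 of 16 macrophage markers were called lower (median -1.03), 8 of 12 endothelial markers higher and 1 lower (median +1.09), 4 of 10 cardiomyocyte markers higher (+0.35) and 0 of 9 fibroblast markers (+0.06). The part of these cell types in the differences was not tested.

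**Figure D5:**
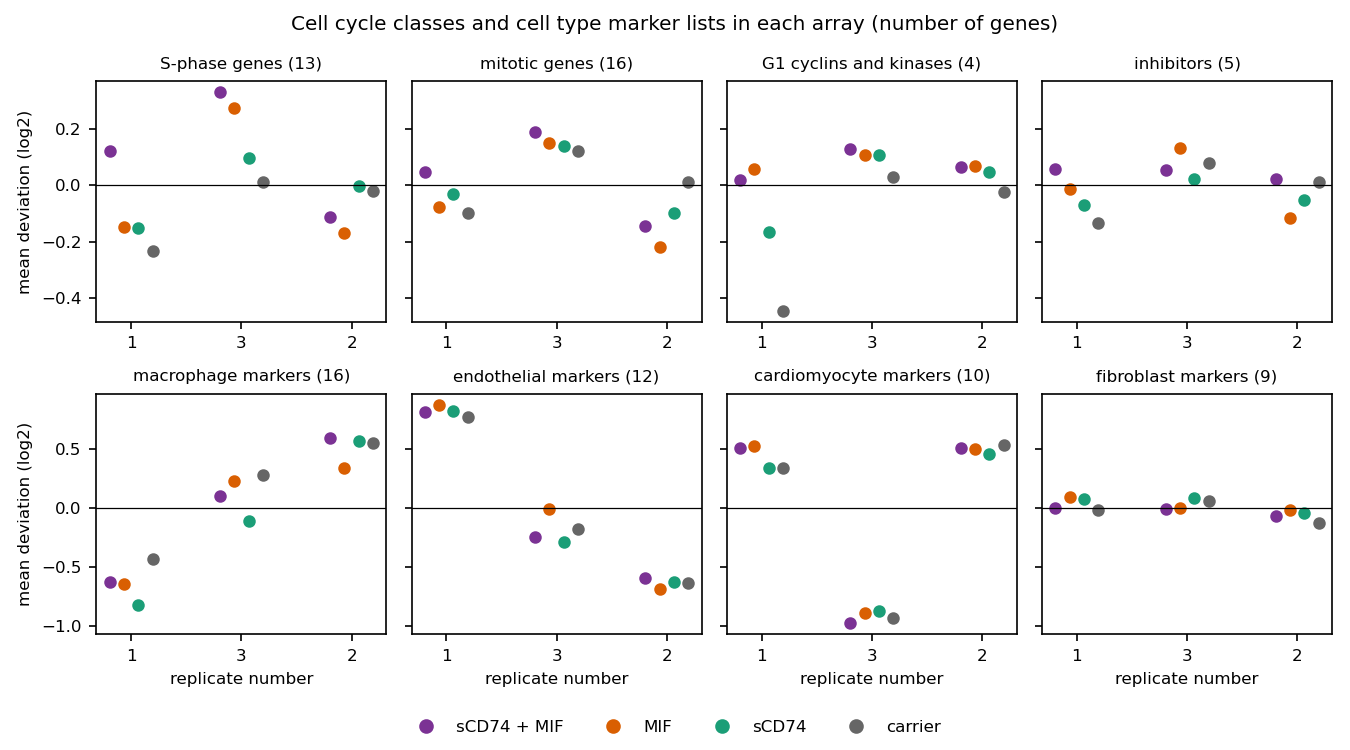
Mean deviation (log2) of the genes of each class or cell type marker list from their means over the 12 arrays, in each array by replicate number, coloured by treatment. Mitotic genes are highest in number 3, at 0.12 to 0.19. S-phase genes are highest there on average, but the co-treated array of number 1 (0.12) lies above the sCD74 (0.097) and carrier (0.011) arrays of number 3. Cardiomyocyte markers are lowest in number 3 at -0.97 to -0.87, and the macrophage and endothelial lists run in opposite order over the numbers.

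Correlations within a class were taken across the 12 arrays, after the mean of each treatment group was taken off, and were positive on average in the G1, S-phase and mitotic classes but not among the inhibitors. The mean Pearson correlation over pairs of genes was 0.53 in the G1 class (6 pairs), 0.49 in the S-phase class (78 pairs), 0.37 in the mitotic class (120 pairs) and -0.06 among the inhibitors (10 pairs), against 0.002 over all pairs of genes. Single pairs reached down to -0.35 in the S-phase class and -0.61 in the mitotic class. Top2a was most like Mcm4 (r = 0.956) and Bub1b (0.908), and Bub1 most like Mcm4 (0.947). Mki67 was most like Cenpe (0.855) and Ccna2 (0.816), Cenpa most like Ccnb2 (0.889) and Cdkn2c most like Cdk4 (0.948). All of these rest on the same 12 arrays and on the shared replicate numbers, the genes looked up were chosen after values were seen, and the correlations are descriptions.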

How the data were processed

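The authors deposited log2 values from Affymetrix whole-transcript arrays. RMA, which corrects background, quantile-normalizes and summarizes probes, is listed in the submitters' processing notes beside the Transcriptome Analysis Console and the Expression Console of Affymetrix, without versions. Of 28846 probe sets, 6640 were controls. Of the other 22206, 19572 carried 1 gene symbol, 0 several and 2634 none, which gave 19505 genes, 1 probe set each (highest mean). limma 3.58.1 (R 4.3.3) fitted every gene by lmFit and eBayes, and p-values were adjusted by Benjamini-Hochberg within a contrast at 0.05. The treatment fit had no replicate term. The replicate number fit had treatment and number. Both were tested on simulated data with independent arrays and differences larger than those called here for members. That test does not cover arrays paired by number or smaller differences. Promoters were searched in Python 3.11.15. The array count limits precision.

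Genes named for a treatment contrast had the smallest p of those higher and of those lower. Called members and the inhibitors are all named. Other lists give at most 3 called genes a direction. The members and lists were chosen with earlier results of these data known. Non-overlap counts, the 95th percentile bound, Ccne2, Mcm5 and Pcna among the treatment values the within-number values of Top2a, the leave-outs for the other cell cycle lists and the printed promoters were chosen after values were seen.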

Additional observations from a re-analysis of the deposited data

Results flagged for a closer look

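In the 10 genes called between replicate numbers, 30 sets of 4 arrays of 1 number were searched for an array far from the others, by a gap above Dixon's critical share of the set's range. Chance flags about 1 in 20 such sets, and 2 of the 30 were found, which is near that rate. The MIF array of number 1 read 9.99 for Cdkn2c, the other 3 arrays of that number 9.65 to 9.68, a gap of 0.909 of the range. The MIF array of number 1 also read 10.49 for Top2a, the other 3 arrays 10.80 to 10.86, a gap of 0.842. The treatment groups of 3 arrays were not searched.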

How the results depend on the processing

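No cell cycle gene was called for treatment under any alternative run. With the replicate block 1 gene was called for MIF, all arrays with against all without, and it was Birc3 (limma adjusted p = 0.0486). Under that block the smallest adjusted p of a member with both agents was 0.572. With the block, an intensity trend and robust variance 6 genes were called with both agents, 1 with MIF, 2 for both agents against sCD74 and 3 for MIF, all with against all without, with 0 members among them. Same-numbered arrays had correlations of their deviations from group means of 0.0971 to 0.647 (18 pairs, 17 above 0.1), differently numbered arrays -0.544 to 0.175, and 12 of 12 arrays correlated best with one of their own number, which is a hint from the data that the numbers pair the arrays. For number 3 against number 2 (224 genes, 3 members), trend and robust variance called 734 genes and 7 members, and genes above background alone 540 and 7. Without the arrays of both agents 72 genes and 0 members were called, without MIF 0 members, without sCD74 50 and 0, and without carrier 40 and 0. For number 1 (3204 genes, 7 members), 3 members were called without the MIF arrays, 1861 genes and 3 members without sCD74, and 2079 and 3 without carrier. Leaving out 1 array gave 2079 to 3063 genes and 3 to 7 members for number 1, 59 to 227 genes and 0 to 3 members for number 3 against number 2, and 0 to 1 gene for MIF, all with against all without. Fewer arrays enter these fits. Otherwise the cause was not tested. Near background, Cdkn2a turned sign for number 3 against number 2 without the MIF arrays (-0.078), and without 1 array it ran over -0.035 to 0.25. For number 1 Cdkn2a turned sign without the carrier arrays (0.038), and without 1 array it ran over -0.11 to 0.044. Cdkn2c for number 3 against number 2 ran over -0.020 to 0.18 without 1 array. No depth applies to arrays, and the 10 genes never above the 95th percentile of negative controls carry the least signal.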
